A study of Rattus norvegicus with 19 samples.

Results

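Left ventricle samples from rats given enalapril plus paricalcitol (4 samples), called the combination below, were compared with those from rats given vehicle (4 samples), across all 14217 genes that the arrays named. These 8 arrays are part of 19, 1 per left ventricle sample, and were chosen by their labelled treatment. All rats were male Dahl salt-sensitive (Harlan SS/Hsd) animals, a strain that becomes hypertensive on a salty diet, and all ate 6% NaCl from 6 weeks of age. The combination rats received 90 ug of enalapril a day by osmotic pump and 200 ng of paricalcitol per intraperitoneal injection, 3 times a week, from 11 to 15 weeks of age. The vehicle rats received the injections without drug for the same 4 weeks. The other arrays held 3 samples from rats given enalapril with vehicle injections, 4 from rats given paricalcitol, and 4 taken untreated at 11 weeks, after 5 weeks of the diet, called the baseline. The design text describes pumps for the enalapril groups alone, so pump and enalapril cannot be told apart. Serial numbers in the labels run in ranges that do not mix between groups. What these numbers mark is not known, and anything that follows them cannot be told apart from treatment.

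Enalapril blocks angiotensin-converting enzyme, which makes the vasoconstrictor angiotensin II. Its dose was chosen by the study to leave blood pressure about where it was. Paricalcitol is a vitamin D analog that activates the vitamin D receptor, a nuclear receptor that binds DNA together with retinoid X receptors. In a pressure-loaded rat heart, the adult myosin heavy chain Myh6 typically gives way to the slower Myh7, natriuretic peptide genes are induced, and fibrous matrix builds up, while fatty acid oxidation tends to decline. The comparison asked what both drugs together changed in such hearts.

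Levels are log2 of the intensity plus 16 after quantile normalization, so that 4 is the floor and the scale is compressed near it. A difference is the combination mean minus the vehicle mean on that scale, with its standard error (SE) from limma, a linear model fitted over all genes. A gene passed when its p, adjusted over all genes by the Benjamini-Hochberg method, was under 0.05. Levels of different genes cannot be compared on these arrays, because each probe set responds with its own strength.

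The labelled tissue was checked first. All 13 measured cardiomyocyte markers were bright, from a mean level of 10.3 for Nkx2-5 to 14.21 for Tnnt2. Of 6 measured atrial markers, Sln and Dhrs9 lay at the floor on every array, while Myl7 (mean level 5.92), Myl4 (7.87), Nr2f2 (8.94) and the natriuretic peptide gene Nppa (14.37) were above it. Before normalization, array medians ran from 43.9 to 61.04 intensity units in the combination, and from 43.6 to 55.5 in vehicle. The first principal component, which held 27.6% of the variance of the 7108 brighter genes, placed combination replicates 2 and 3 at -24.4 and -15.8 and replicates 1 and 4 at 11.7 and 4.82. The 4 vehicle arrays lay between -5.58 and 5.15. Among the 8 arrays compared, combination replicates 2 and 3 also had the lowest red cell marker levels, -0.75 and -0.71, with 0.56 and 0.54 on replicates 1 and 4, and -0.24 to 0.41 in vehicle. Paricalcitol replicates 2 and 3 were similar, at -17.7 and -11.8 on the component and -0.49 and -0.82 for red cell markers. Enalapril replicate 1 had a red cell level of -0.58. Some named differences of over 0.1 moved by more than 1.5 times without combination replicates 2 and 3. For these, the difference of combination replicates 1 and 4 from vehicle is given as well. In whole tissue, fewer cells of a type and less RNA per cell cannot be told apart.

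Lsm5 was the 1 gene that passed, or 0.00703% of the genes tested. It encodes a subunit of the Lsm rings, which bind the ends of small nuclear RNAs in splicing and of messenger RNAs in decay. Its level was 8.71, 8.94, 8.78 and 8.79 on the combination arrays, against 8.27, 8.43, 8.28 and 8.36 on the vehicle arrays. Every combination array lay above every vehicle array, and the nearest arrays of the groups were at 8.71 and 8.43. Lsm5 rose 1.39-fold, with a difference of 0.47 (SE 0.07, n = 4 in each group; limma adjusted p = 0.0415). The call was narrow. It was lost when any 1 of the 8 arrays was left out (differences 0.43 to 0.50, adjusted p from 0.0584 to 0.207), and also when other scalings were used, as listed in the closing section.

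All single-drug arrays lay above all vehicle arrays for Lsm5, and 1 of them, paricalcitol replicate 1, lay above the lowest combination array. Lsm5 was 8.48, 8.67 and 8.55 with enalapril and 8.73, 8.63, 8.58 and 8.65 with paricalcitol, and 8.54, 8.51, 8.58 and 8.31 at baseline. Combination replicates 2, 3 and 4 were above all of these 11 arrays. The combination minus paricalcitol was 0.16 (SE 0.07; adjusted p = 0.467) and the combination minus enalapril 0.24 (SE 0.07; adjusted p = 0.904), so neither passed. Against the shared vehicle arrays, paricalcitol had 0.31 (SE 0.07) and enalapril 0.23 (SE 0.07), and neither passed. Among genes brighter than the median, the 5 whose levels followed Lsm5 most closely over all 19 arrays were Tmx2 (Pearson r = 0.82), Ak3 (r = -0.82), Rbis (r = 0.81), Ap1b1 (r = 0.80) and Mrpl49 (r = 0.79). These correlations describe arrays that share group differences and normalization.

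Other Lsm genes were measured on the same arrays. Of Lsm1, Lsm2, Lsm3, Lsm4, Lsm7 and Lsm8, all 6 were higher in the combination mean, by 0.10 for Lsm8 to 0.19 for Lsm2, and the groups overlapped for each. Lsm7, for example, had 8.97, 9.30, 9.34 and 9.06 in the combination, against 8.70, 9.08, 9.10 and 9.08 in vehicle. None passed, and without combination replicates 2 and 3 Lsm1 (-0.077) and Lsm3 (-0.15) were lower, Lsm2 (0.037) and Lsm7 (0.030) were close to vehicle, and Lsm4 (0.40) and Lsm8 (0.17) had larger differences.

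The promoter windows of Lsm5 and of 3 further genes are printed because these genes belong to groups, described below, in which most members were higher in the combination. Each window runs from 250 bases before to 50 bases after the RefSeq transcription start on build GRCr8, 5′ to 3′ on the gene's strand. Capitals mark matches to motifs described after the sequences. The windows are Lsm5 at chr4:87284427-87284726, minus strand; Mrpl49, a mitochondrial ribosomal protein, at chr1:212779278-212779577, minus strand; Mrpl44, another, at chr9:88554800-88555099, plus strand; and Snrpe, an Sm protein of the splicing machinery, at chr13:47609202-47609501, minus strand.
Lsm5: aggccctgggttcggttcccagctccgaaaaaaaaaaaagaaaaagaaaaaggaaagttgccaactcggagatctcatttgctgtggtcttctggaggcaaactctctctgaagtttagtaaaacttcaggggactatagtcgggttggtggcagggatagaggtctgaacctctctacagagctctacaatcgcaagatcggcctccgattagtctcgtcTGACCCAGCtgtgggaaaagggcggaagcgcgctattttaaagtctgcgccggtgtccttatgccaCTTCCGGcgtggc
Mrpl49: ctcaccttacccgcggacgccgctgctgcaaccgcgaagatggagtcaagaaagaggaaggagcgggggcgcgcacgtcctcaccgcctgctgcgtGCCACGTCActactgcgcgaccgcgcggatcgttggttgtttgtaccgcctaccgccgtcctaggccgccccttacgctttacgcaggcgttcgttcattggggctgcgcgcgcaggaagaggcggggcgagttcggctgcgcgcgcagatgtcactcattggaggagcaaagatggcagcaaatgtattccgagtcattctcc
Mrpl44: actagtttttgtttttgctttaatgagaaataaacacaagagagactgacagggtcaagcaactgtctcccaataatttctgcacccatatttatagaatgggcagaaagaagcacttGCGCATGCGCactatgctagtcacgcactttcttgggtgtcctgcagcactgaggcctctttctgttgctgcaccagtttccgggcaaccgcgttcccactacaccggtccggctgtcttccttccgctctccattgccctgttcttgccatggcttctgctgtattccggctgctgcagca
Snrpe: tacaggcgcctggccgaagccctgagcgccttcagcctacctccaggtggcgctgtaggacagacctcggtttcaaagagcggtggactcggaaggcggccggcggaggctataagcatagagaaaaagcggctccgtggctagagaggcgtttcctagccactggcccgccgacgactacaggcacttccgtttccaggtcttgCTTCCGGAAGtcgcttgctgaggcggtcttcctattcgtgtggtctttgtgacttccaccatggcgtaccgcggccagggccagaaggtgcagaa

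The motifs searched on both strands were CCGGAAG of ETS factors, that of NRF1 (GCGCA and GCGC with any 1 base between them), TGACNNNGC of antioxidant response elements, and the VDR DR3 element by name. The Lsm5 window held CCGGAAG on the minus strand from base 38 and TGACCCAGC from base -29, counted from the start site. Mrpl49 held the antioxidant motif at -154 on the minus strand, Mrpl44 the palindromic NRF1 motif at -132, and Snrpe overlapping CCGGAAG matches on both strands at -45 and -42. CCGGAAG was in 31.6% of the 57 windows of mitochondrial ribosomal proteins, 34.5% of the 29 of proteasome subunits and 25.0% of the 28 of Lsm, Sm and core splicing proteins. It was in 15.1% of the 11700 windows of genes on the arrays and 9.22% of all 27457 RefSeq windows. NRF1's motif was in 14.0%, 17.2% and 21.4% of the same 3 groups, against 8.5% of the genes on the arrays and 4.71% of all windows. The antioxidant motif was in 14.0%, 20.7% and 10.7%, against 14.4% and 12.2%. VDR DR3 was in 0.102% of all windows and in 0 of the 31 windows found for the genes named below by p or by size. It was also in 0 of the 16 windows of vitamin D receptor and target genes. The element is too rare for 0 in so few windows to be read as an absence. These matches are letters in a window, not sites.

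Below the threshold, 1092 genes (7.68%) had an unadjusted p under 0.05, of which 597 (4.2%) were higher and 495 (3.48%) lower in the combination. The groups did not overlap for 602 genes (4.23%), 329 (2.31%) higher and 273 (1.92%) lower. Over all genes 7241 were higher and 6346 lower, with a median difference of 0.00. The balance depended on the scaling. Of the genes at unadjusted p under 0.05, 54.7% were higher as reported, 70.1% in the deposited values without equalisation, and 36.3% with arrays scaled to a common median. A difference above 1 in size was measured for 46 genes higher and 59 lower, against a median SE of 0.16.

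**Figure D1:**
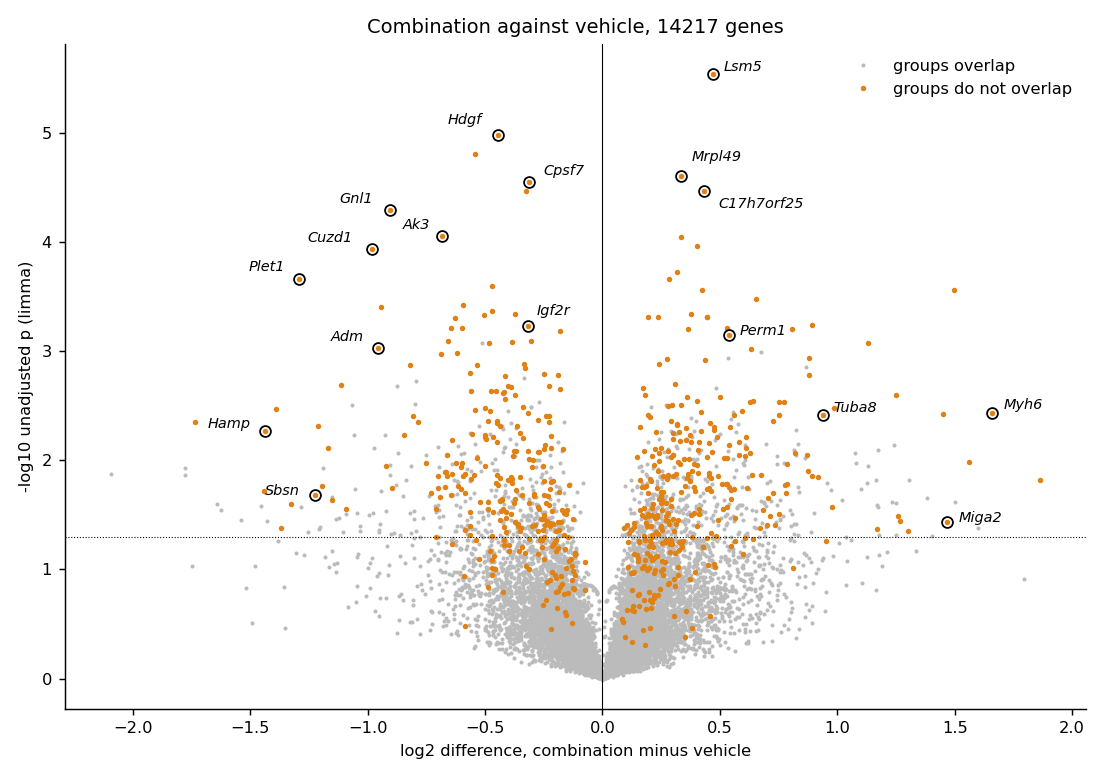
Log2 difference of the combination minus vehicle (x axis) against -log10 of limma's unadjusted p (y axis) for 14217 genes. Orange points are the 602 genes whose groups do not overlap, circled genes are labelled, and the dotted line marks an unadjusted p of 0.05 in limma. Lsm5 stands highest, at a difference of 0.47, while genes with larger differences such as Myh6 (1.66) and Hamp (-1.44) have larger p.

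Closest to the threshold on the high side was Mrpl49, which belongs to the large subunit of the mitochondrial ribosome. It had 9.86, 9.83, 9.73 and 9.78 in the combination, against 9.39, 9.51, 9.39 and 9.56 in vehicle, a difference of 0.34 (SE 0.06; limma adjusted p = 0.0701). Its other probe set had 9.10, 8.94, 8.95 and 8.99, against 8.76, 8.79, 8.64 and 8.92. Both probe sets separated the groups. C17h7orf25, an open reading frame without a well-described role, had 8.21, 8.21, 8.08 and 8.02 in the combination, against 7.69, 7.65, 7.58 and 7.85 in vehicle (0.43, SE 0.07; adjusted p = 0.0701). The next were Ndc1, a membrane nucleoporin (0.33), Rbis, a ribosome biogenesis factor (0.40), Tmx2, a thioredoxin-related membrane protein (0.32), Wbp1 (0.28) and Ap1b1, a clathrin adaptor subunit (0.42). Their adjusted p ran from 0.127 to 0.219, and each separated the groups completely.

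On the low side, Hdgf, a growth factor first described in hepatoma cells, had 8.16, 8.17, 8.06 and 8.23 in the combination, against 8.67, 8.52, 8.62 and 8.59 in vehicle. The groups were clearly apart and the difference was -0.45 (SE 0.07; limma adjusted p = 0.0701), which did not pass. With the red cell marker level as a covariate it was -0.44 (adjusted p = 0.0385). Cpsf7, a subunit of the cleavage factor that helps place poly(A) sites, had 8.33, 8.22, 8.28 and 8.28 in the combination, against 8.56, 8.63, 8.51 and 8.65 in vehicle (-0.31, SE 0.05; adjusted p = 0.0701). Its 3 other probe sets were -0.18, -0.14 and -0.01. Synj1, a phosphoinositide phosphatase of vesicle recycling, had -0.32 (SE 0.06; adjusted p = 0.0701). Gnl1, a GTP-binding protein gene in the MHC region, had 7.28, 7.14, 8.02 and 7.40 in the combination, against 8.53, 8.35, 8.21 and 8.36 in vehicle (-0.90, SE 0.16; adjusted p = 0.0915). Gnl1 thus did not pass with all arrays. Combination replicate 3 lay nearest to vehicle, so leaving it out had to enlarge the difference, to -1.09 (limma adjusted p = 0.00719). Without combination replicate 2 the difference was -0.80.

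Ak3, the GTP:AMP phosphotransferase of the mitochondrial matrix, had 9.99, 9.98, 10.04 and 10.19 in the combination, against 10.83, 10.67, 10.84 and 10.58 in vehicle. The groups were apart at both of its probe sets, with differences of -0.68 (SE 0.13; limma adjusted p = 0.127) and -0.42 (SE 0.09). The remaining genes with small p on the low side were dim. Kiaa0319 was at the floor on all 4 combination arrays and between 4.40 and 4.64 in vehicle, so no fold is given. Plet1 was 4.00 to 4.16 in the combination and 5.23 to 5.47 in vehicle, and its other probe sets had 0.00 and 0.09. Cuzd1 was 4.00 to 4.92 in the combination and 5.00 to 5.57 in vehicle.

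The genes near the threshold had unlike values under the single drugs, and no difference between the combination and a single drug passed for any gene (0 of 14217, or 0.0%, for both). At an unadjusted p under 0.05 in limma there were 1286 genes (9.05%) between the combination and paricalcitol, and 754 (5.3%) between the combination and enalapril. Hdgf was 8.30 with enalapril and 8.28 with paricalcitol on average, against 8.15 in the combination and 8.60 in vehicle. Cpsf7 averaged 8.28 in the combination, 8.43 with enalapril and 8.59 with paricalcitol, and 8.59 in vehicle. Mrpl49 averaged 9.80, 9.61, 9.53 and 9.46 in the same order. Perm1 averaged 10.54 in the combination, 10.04 with enalapril and 10.02 with paricalcitol, where the vehicle arrays had 9.90 to 10.10.

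**Figure D2:**
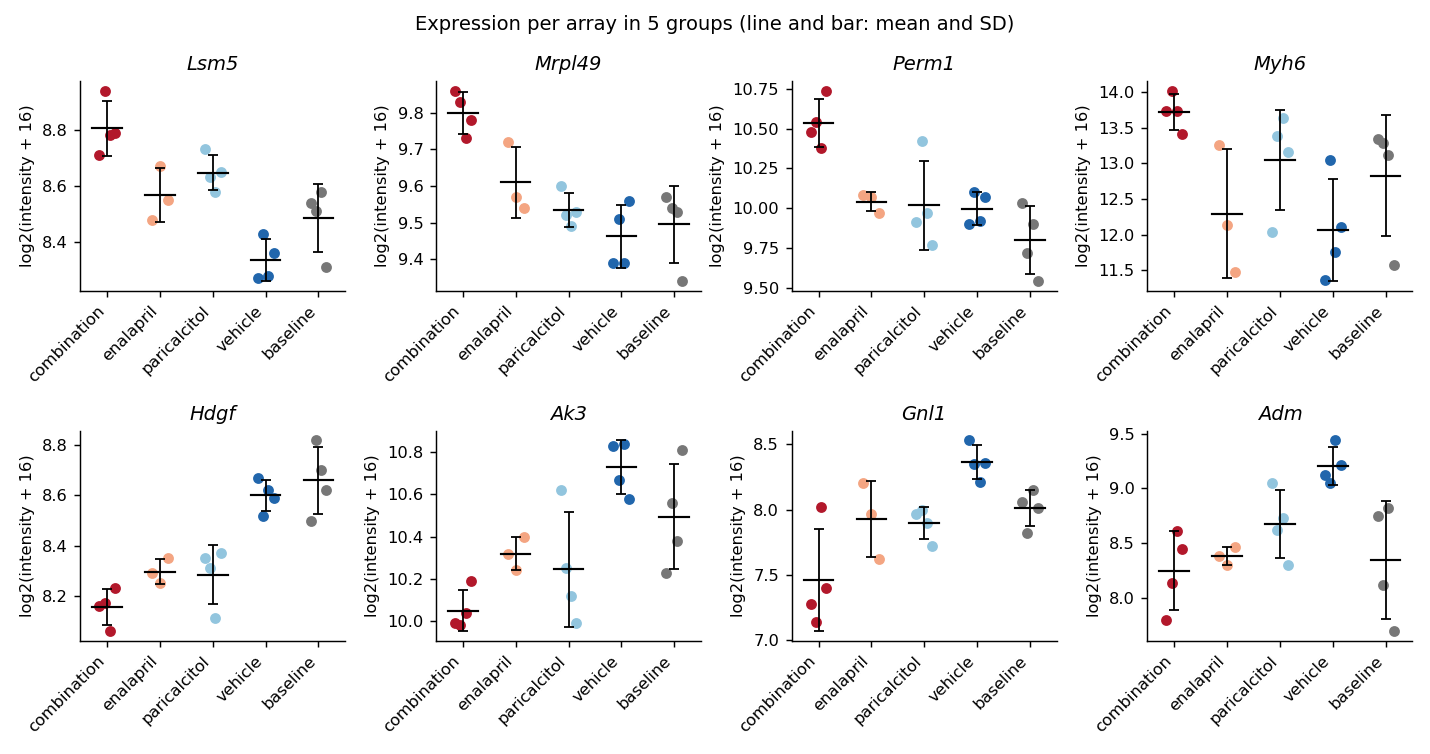
Level on every array (points, log2 of intensity plus 16) of 8 genes in the combination (n = 4), enalapril (n = 3), paricalcitol (n = 4), vehicle (n = 4) and baseline (n = 4) groups, with mean and SD as lines. Lsm5 is 8.71 to 8.94 in the combination and 8.27 to 8.43 in vehicle, and for all 8 genes the combination and vehicle points do not overlap. The y axes do not start at 0 and differ between panels.

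Among brighter genes whose groups did not overlap (212 higher and 194 lower of 7108), the largest positive difference was that of Myh6, which encodes the fast form of cardiac myosin. It had 13.73, 14.02, 13.73 and 13.41 in the combination, against 11.36, 13.04, 11.75 and 12.10 in vehicle. Vehicle varied widely, and its replicate 2 came nearest to the combination. The difference was 1.66 (SE 0.48) and did not pass (limma adjusted p = 0.452). No fold is given, because the combination arrays came near the highest level of any gene (14.42), where differences may be compressed. Its dimmer probe set had 11.39, 12.33, 11.48 and 10.32 in the combination, against 7.51, 9.83, 7.89 and 8.78 in vehicle, a difference of 2.88 (SE 0.75). Both probe sets thus placed the combination arrays on top. Paricalcitol arrays, at 12.04 to 13.63, overlapped both groups. Enalapril arrays, at 11.47 to 13.26, overlapped vehicle but lay below all combination arrays, and baseline arrays had 11.57 to 13.34. The combination minus paricalcitol was 0.67 (SE 0.48) and the combination minus enalapril 1.43 (SE 0.52), and neither passed.

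Perm1, a muscle regulator that acts with PGC-1 in mitochondrial gene expression, had 10.48, 10.54, 10.38 and 10.74 in the combination, against 9.90, 10.10, 9.92 and 10.07 in vehicle. Its difference of 0.54 (SE 0.13; limma adjusted p = 0.261) did not pass. Tuba8, an alpha-tubulin of muscle and testis, had 10.46, 10.92, 10.58 and 10.38 in the combination, against 9.62, 9.78, 9.39 and 9.80 in vehicle (0.94, SE 0.28; adjusted p = 0.452). The other positive differences of this set were Efemp1, a fibulin of the extracellular matrix (0.71), Pikfyve, a phosphoinositide kinase (0.61, with -0.11 at its other probe set), Septin4 (0.56), Fabp5, a fatty acid binding protein (0.55), the RNA-binding Csdc2 (0.55), the splicing factor Wbp11 (0.54) and the transmembrane protein Tmem218 (0.54). Miga2, which acts in mitochondrial fusion, had 1.47, but vehicle replicate 1 was at the floor while the other vehicle arrays had 7.63 to 8.18, against 8.21 to 8.49 in the combination, and without that array the difference was 0.50. Without combination replicate 3 that of Wbp11 was 0.32. Without combination replicates 2 and 3 the differences were 0.45 for Efemp1, 0.31 for Wbp11 and 0.36 for Tmem218. Mast3, a kinase gene, had 1.30 at its brightest probe set and -1.03 at another, so its direction is not settled.

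The largest negative difference of this set was that of Hamp, which encodes hepcidin, an iron-regulating peptide. It had 10.42, 8.36, 9.10 and 9.79 in the combination, against 10.54, 10.57, 11.59 and 10.73 in vehicle (-1.44, SE 0.44; limma adjusted p = 0.478). Replicates 2 and 3 of the combination were the lowest, and without them the difference was -0.75. Adm, adrenomedullin, a vasodilator peptide, had 7.80, 8.14, 8.61 and 8.45 in the combination, against 9.12, 9.05, 9.44 and 9.21 in vehicle. Its difference was -0.96 (SE 0.23; adjusted p = 0.289), and enalapril arrays, at 8.30 to 8.47, lay in the range of the combination. Ptgfr, the prostaglandin F receptor, had 8.58 to 9.03 in the combination and 9.46 to 9.71 in vehicle (-0.81, and -0.66 at its other probe set).

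Further negative differences were Sbsn (-1.22), the stress-responsive Nupr1 (-0.92), Dkk3, a secreted protein of the Dickkopf family (-0.85), the dynein heavy chain Dnah7 (-0.71), the ubiquitin ligase adaptor Dcaf6 (-0.69), Misp3 (-0.67) and Clip1, a microtubule plus-end protein (-0.67). Sbsn and Nupr1 were lowest on combination replicates 2 and 3, and Dkk3 was too, at 9.99 and 9.93 with 10.98 and 10.89 on replicates 1 and 4. Without these arrays the differences were -0.57 for Sbsn, -0.35 for Nupr1 and -0.36 for Dkk3. Dkk3's other probe sets had -1.37, 0.15 and 0.01. Of the 44 genes named in the text that have several probe sets, 30 had the same sign at all of them.

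Most other contractile and stress genes named here could not be compared well, since their probe sets lie at the top of the scale. Myh7, Acta1, Atp2a2, Pln, Ankrd1, Nppa and Tnnt2 were between 13.94 and 14.42 on all 19 arrays, where 14.42 is the highest level of any gene, so small differences there do not show that expression was alike. Of 15 contractile protein genes 8 were higher and 7 lower (median 0.03). The 1 with an unadjusted p under 0.05 was Myh6 (6.67%), beside 4.2% of all genes that were higher at that p. Myh7, the slow myosin heavy chain, had 14.25, 14.04, 13.98 and 14.07 in the combination, against 14.12, 14.14, 14.05 and 14.14 in vehicle (-0.03, SE 0.06). Its dimmer probe set had 13.35, 12.71, 12.74 and 12.56 in the combination, against 13.11, 12.87, 12.95 and 12.89 in vehicle (-0.12, SE 0.14), and the groups overlapped. Nppa, atrial natriuretic peptide, had -0.11 (SE 0.07) and Nppb, the B-type peptide, -0.24 (SE 0.22), or -0.0094 and -0.0045 without combination replicates 2 and 3. Both overlapped between the groups, as did the skeletal actin gene Acta1 (0.04), the calcium pump Atp2a2 (0.03) and its inhibitor Pln (0.02), whose sign turned under other scalings. The clearance receptor Npr3 had 6.35, 4.00, 4.00 and 4.67 in the combination, against 5.29, 5.77, 6.00 and 5.77 in vehicle. It was at the floor on combination replicates 2 and 3, and without them its difference was -0.20. Of 7 natriuretic peptide and receptor genes 6 were lower. Npr3 was the 1 (14.3%) with an unadjusted p under 0.05, beside 3.48% of all genes that were lower at that p. Of 16 Z-disc and stretch-responsive genes 13 were lower (median -0.03), with Ankrd1, a stretch-induced ankyrin repeat protein, at -0.04, and none had an unadjusted p under 0.05.

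Several groups whose products make or degrade proteins or process RNA had most members higher in the combination. Cytosolic ribosomal proteins and genes of cytoplasmic mRNA decay, given further below, were more evenly divided. Mitochondrial ribosomal proteins translate the proteins encoded by mitochondrial DNA. Of 71 measured, 60 were higher and 11 lower, with a median of 0.11, where the median of all genes was 0.00. At an unadjusted p under 0.05, 12 (16.9%) were higher and 1 (1.41%) lower, beside 4.2% and 3.48% of all genes. Complete separation of the groups was seen for 6, all higher, where 2.31% of all genes separated in that direction. Mrpl44 had 9.00, 9.08, 8.90 and 9.16 in the combination, against 8.78, 8.85, 8.33 and 8.77 in vehicle (0.36, SE 0.11). Mrps30 had 0.19 (SE 0.07), and Mrps6, of the small subunit, went the other way at -0.30 (SE 0.11), or -0.13 without combination replicates 2 and 3. None passed over all genes. With arrays scaled to a common median 46 were higher and 25 lower (median 0.04) and 2 higher members had an unadjusted p under 0.05, and without combination replicates 2 and 3 it was 38 and 33 (median 0.02).

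Proteasome subunits form the particle that degrades ubiquitin-tagged proteins. Of 33, 27 were higher and 6 lower (median 0.08). An unadjusted p under 0.05 was found for 11 (33.3%), all higher, beside 4.2% of all genes. Among the 33, 1 higher and 1 lower member separated the groups completely, beside 2.31% and 1.92% of all genes. The deubiquitinase subunit Psmd14 had 10.12, 9.81, 9.66 and 9.90 in the combination, against 9.57, 9.50, 9.42 and 9.74 in vehicle (0.31, SE 0.10). Psma1 and Psmb3, of the core particle, had 0.16 (SE 0.06) and 0.19 (SE 0.07), and the ATPase Psmc3 had 0.19 (SE 0.07), or 0.11 without combination replicates 2 and 3. The smallest limma adjusted p of the group was 0.478. The mean level of the 33 subunits relative to all 19 arrays was 0.05, 0.04, 0.01 and -0.01 in the combination, against -0.04, -0.07, -0.09 and -0.04 in vehicle. These small levels did not overlap, also in replicates 1 and 4. Baseline arrays had -0.018 to 0.035, paricalcitol arrays -0.006 to 0.115 and enalapril arrays -0.075 to 0.0, each overlapping the combination. The level was thus low in vehicle rather than particular to the combination. With arrays scaled to a common median 18 were higher and 15 lower (median 0.0029), 1 of each at an unadjusted p under 0.05, and in the deposited values 0 members had an unadjusted p under 0.05 in limma.

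Lsm, Sm and core splicing proteins assemble the spliceosome. Of 32, 26 were higher and 6 lower (median 0.13). An unadjusted p under 0.05 was found for 4 (12.5%), all higher, beside 4.2% of all genes. Lsm5 is 1 of these 4. Snrpe had 10.52, 10.47, 10.22 and 10.27 in the combination, against 10.15, 10.17, 10.13 and 10.21 in vehicle (0.20, SE 0.06), without overlap. The Sm proteins Snrpd2 and Snrpb had 0.25 (SE 0.10) and 0.20 (SE 0.08). Without combination replicates 2 and 3, 18 were higher and 14 lower (median 0.03), and Snrpd2 had 0.16. The mean level of the 32 genes was -0.014 to 0.04 in the combination and -0.161 to -0.006 in vehicle. Baseline arrays had 0.002 to 0.112, paricalcitol arrays -0.1 to 0.147 and enalapril arrays -0.062 to 0.014, each overlapping the combination. Genes of cytoplasmic mRNA decay, where Lsm rings also act, had 15 of 29 higher and 14 lower (median 0.01). At an unadjusted p under 0.05, 2 (6.9%) were higher and 2 (6.9%) lower, beside 4.2% and 3.48% of all genes. Cytosolic ribosomal proteins had 18 of 42 higher and a median of -0.01. Of these, 4 (9.52%) were higher and 2 (4.76%) lower at an unadjusted p under 0.05, beside 4.2% and 3.48% of all genes. The groups were separated by 4, all higher, where 2.31% of all genes separated in that direction.

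**Figure D3:**
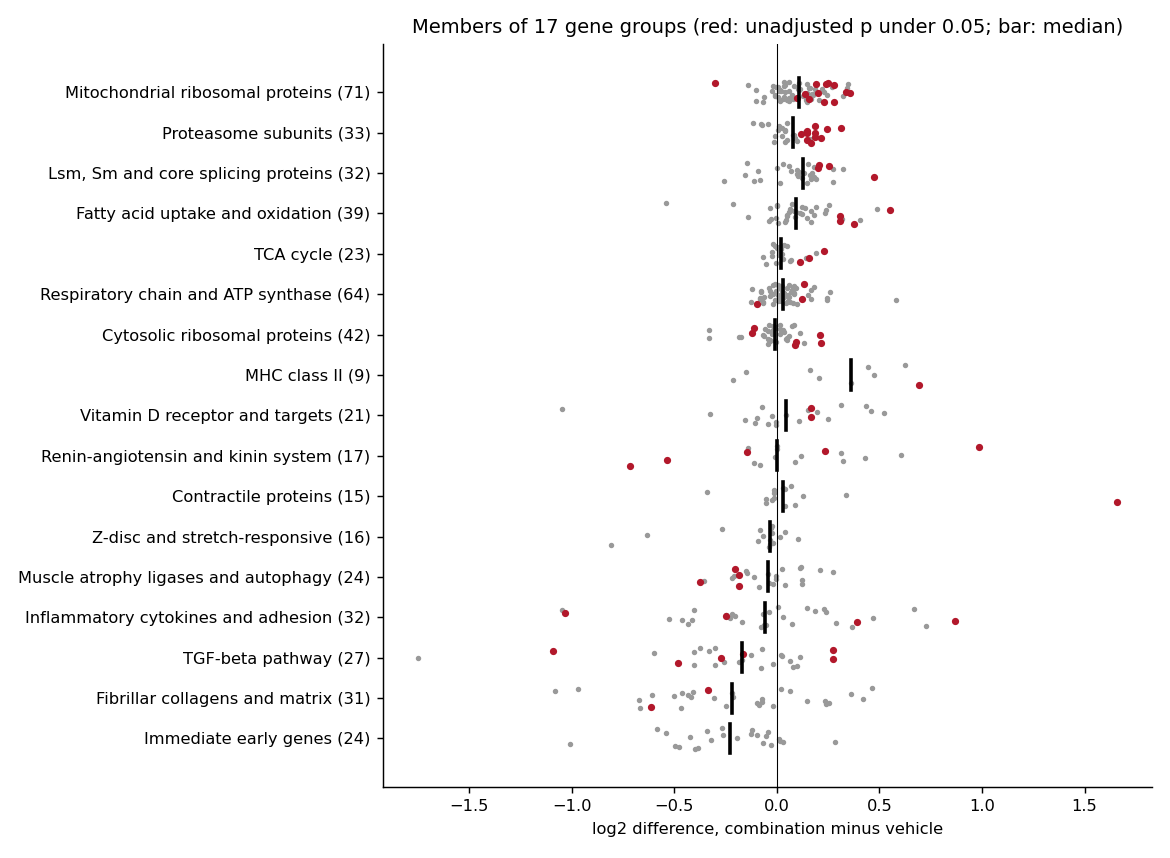
Log2 difference of the combination minus vehicle (x axis) for each measured member of 17 gene groups, with the number of members in brackets. Red points had an unadjusted p under 0.05 and black bars are group medians, from 0.36 for MHC class II to -0.23 for immediate early genes. The medians of the respiratory chain (0.03) and the TCA cycle (0.02) turned to -0.08 and -0.08 with arrays scaled to a common median.

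Genes of fatty acid uptake and oxidation, the main energy source of the heart, were higher in 31 of 39 members (median 0.09). At an unadjusted p under 0.05 there were 4 (10.3%), all higher, beside 4.2% of all genes. Acaa2, the last enzyme of the oxidation spiral, had 12.31, 13.01, 12.75 and 12.19 in the combination, against 12.38, 12.43, 12.04 and 11.91 in vehicle (0.37, SE 0.17). Acadvl, the very long chain dehydrogenase, had 0.31 (SE 0.14), and Crat, carnitine acetyltransferase, 0.31 (SE 0.14). Combination replicates 2 and 3 were the high ones for Acaa2 and Crat, and without them the differences were 0.060 for Acaa2, 0.034 for Crat and 0.092 for Acadvl. The mean level of the 39 genes was 0.39 and 0.23 on those arrays, -0.22 and -0.09 on replicates 1 and 4, and -0.13 to 0.08 in vehicle. Without replicates 2 and 3 the count turned to 12 higher and 27 lower (median -0.08). Beside these levels stand the red cell marker levels given above, which were the lowest of the 8 on the same arrays. With that marker level as a covariate, 31 of 39 were higher (median 0.07).

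Group medians were smaller downstream in energy metabolism. Of 23 TCA cycle genes, including the pyruvate dehydrogenase entry, 16 were higher (median 0.02), with Pdhb at 0.23 (SE 0.09), Idh3a at 0.16 (SE 0.07) and Dld at 0.11 (SE 0.05). At an unadjusted p under 0.05 there were 3 (13.0%), all higher, beside 4.2% of all genes. Of 64 respiratory chain and ATP synthase subunits 45 were higher (median 0.03), but 13 with arrays scaled to a common median (median -0.08) and 18 without combination replicates 2 and 3. As reported, 2 of the 64 (3.12%) were higher and 1 (1.56%) lower at an unadjusted p under 0.05, beside 4.2% and 3.48% of all genes. Uqcrh of complex III had 0.13 (SE 0.05), Cox5b of complex IV 0.12 (SE 0.06), and Atp5f1a, the ATP synthase alpha subunit, -0.10 (SE 0.04). Pdhb had 0.13 and Cox5b 0.041 without combination replicates 2 and 3. Among regulators Prkag1, a subunit of AMP-activated kinase, had 9.67, 9.76, 9.72 and 9.72 in the combination, against 9.64, 9.54, 9.50 and 9.50 in vehicle (0.17, SE 0.05). The lowest combination array was just above the highest vehicle array. Hk2, the insulin-responsive hexokinase, had 0.56 (SE 0.19). Of 28 glucose uptake and glycolysis genes 16 were higher (median 0.04). Only 1 (3.57%), a higher member, had an unadjusted p under 0.05, beside 4.2% of all genes.

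Fibrillar collagen and matrix genes build scar tissue. Of 31, 22 were lower and 9 higher in the combination (median -0.22). At an unadjusted p under 0.05 there were 2 (6.45%), both lower, beside 3.48% of all genes. Sparc, a collagen-binding matricellular protein, had 11.42, 11.67, 11.79 and 11.63 in the combination, against 11.93, 11.97, 11.93 and 12 in vehicle (-0.33, SE 0.08; limma adjusted p = 0.331). That probe set separated the groups, while the other had a difference of 0.00. Col11a1, a minor fibrillar collagen, was dim, with 4.60 to 5.24 in the combination and 5.37 to 5.89 in vehicle. The mean level of the 31 genes was -0.15, -0.73, -0.39 and 0.23 in the combination, against -0.15, -0.09, -0.07 and 0.13 in vehicle. Replicates 2 and 3 were lowest and replicate 4 was above all vehicle arrays. Without replicates 2 and 3 the count turned to 21 higher and 10 lower (median 0.08). Timp3, a metalloproteinase inhibitor, had -0.43 (SE 0.13) and was lower at all 4 of its probe sets, and the sheddase Adam17 had 0.36 (SE 0.10).

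**Figure D4:**
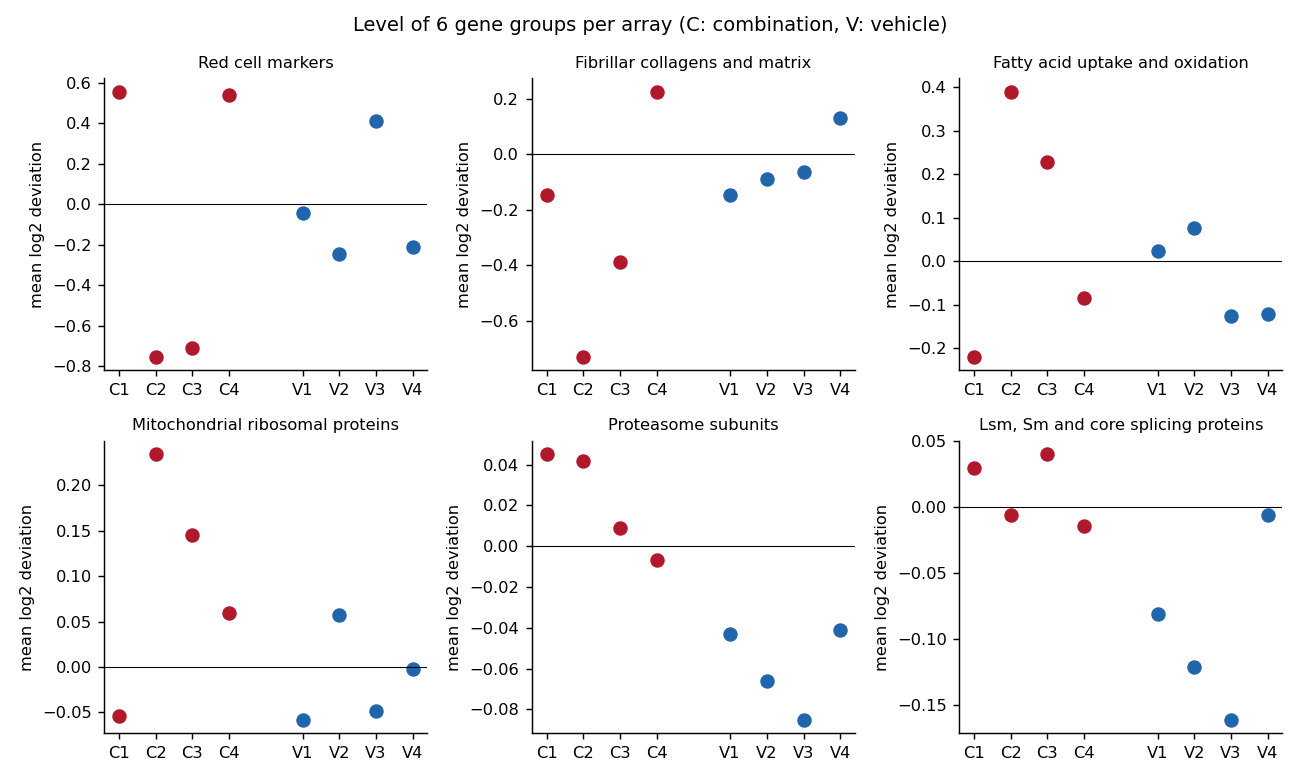
Mean level of 6 gene groups on the 4 combination arrays (C1 to C4) and the 4 vehicle arrays (V1 to V4), as the mean deviation of the members from their average over all 19 arrays (y axis, log2). Red cell markers are lowest on C2 and C3 (-0.75 and -0.71), where collagen genes are also lowest and fatty acid genes highest, while proteasome levels differ less and do not overlap between the groups.

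TGF-beta ligands bind paired receptor kinases that signal through Smad proteins. Of 27 pathway genes 19 were lower (median -0.17). At an unadjusted p under 0.05 there were 4 lower (14.8%) and 2 higher (7.41%), beside 3.48% and 4.2% of all genes. Bmpr2, the type II BMP receptor, had 9.30, 9.16, 9.49 and 9.50 in the combination, against 9.77, 9.85, 9.86 and 9.90 in vehicle (-0.48, SE 0.12; limma adjusted p = 0.267), and -0.10 at its other probe set. Skil, a repressor of Smad signalling, had -0.27 (SE 0.11). Of the ligands, Tgfb2 had 9.50, 6.98, 8.36 and 8.34 in the combination, against 9.71, 8.98, 9.59 and 9.27 in vehicle (-1.09, SE 0.46), and Tgfb3 had 0.27 (SE 0.11). The ligands thus differed in sign. Without combination replicate 2 the difference of Tgfb2 was -0.65, and without replicates 2 and 3 it was -0.47. Without combination replicates 2 and 3, 15 of the 27 were lower (median -0.02).

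Immediate early genes encode transcription factors induced within minutes of a stimulus. Of 24, 20 were lower in the combination (median -0.23), and 0 had an unadjusted p under 0.05 in limma. Junb had 7.86, 7.85, 7.76 and 7.81 in the combination, against 7.96, 8.89, 7.93 and 8.20 in vehicle (-0.43, SE 0.29). Separation was complete, and vehicle replicate 2 was far above the rest, without which the difference was -0.21. Fos had 6.41, 5.35, 5.64 and 6.46 in the combination, against 6.84, 8.08, 6.28 and 6.70 in vehicle (-1.01, SE 0.71), with -0.02 at its other probe set. Without vehicle replicate 2 it was -0.64, and without combination replicates 2 and 3 it was -0.54. Without combination replicates 2 and 3, 16 of the 24 were lower (median -0.08).

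Inflammatory genes had no common direction, with 14 of 32 cytokine and adhesion genes higher. Cxcl9, an interferon-induced chemokine, had 6.28, 6.81, 7.38 and 6.71 in the combination, against 5.73, 5.82, 6.11 and 6.04 in vehicle (0.87, SE 0.29; limma adjusted p = 0.499). The homing chemokine Cxcl12 had 0.39 (SE 0.15) and was higher at all 3 of its probe sets. Il6st, the shared receptor subunit of the interleukin-6 family, had 10.43, 10.46, 10.51 and 10.39 in the combination, against 10.72, 10.64, 10.71 and 10.72 in vehicle (-0.25, SE 0.08). Its other probe sets had -0.10, -0.16 and -0.05, and the groups overlapped at each. Ptgs2, the inducible cyclooxygenase, had -1.03 (SE 0.46). Ptgs2 had -0.43 and Cxcl9 0.57 without combination replicates 2 and 3. Of 14 complement genes 11 were lower (median -0.14), or 5 without combination replicates 2 and 3. The C5a receptor C5ar1 had 7.69 to 8.11 in the combination and 8.17 to 8.51 in vehicle (-0.49, SE 0.14), C6 had 0.43 (SE 0.17) and the inhibitor Serping1 -0.36 (SE 0.16), or -0.19 without those replicates.

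MHC class II molecules present peptides to helper T cells. Of their 9 genes 7 were higher in the combination (median 0.36). Cd74, the invariant chain, had 11.33, 12.37, 12.05 and 11.72 in the combination, against 11.04, 11.61, 10.80 and 11.25 in vehicle (0.69, SE 0.32), and RT1-Db1 had 0.62 (SE 0.32). These were 0.35 and 0.41 without combination replicates 2 and 3. The groups overlapped for all 9 members. Macrophage and myeloid markers had 10 of 16 members higher and their mean level ran from -0.48 to 0.43 in the combination, against -0.35 to -0.04 in vehicle.

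The target systems of both drugs were examined next. Of 17 renin-angiotensin and kinin genes 8 were higher and 8 lower (median 0.00), with 3 lower (17.6%) and 2 higher (11.8%) at an unadjusted p under 0.05, beside 3.48% and 4.2% of all genes. Ace, the enzyme that enalapril inhibits, had 7.85, 6.85, 6.79 and 7.89 in the combination, against 8.07, 7.50, 8.30 and 8.38 in vehicle (-0.71, SE 0.29; limma adjusted p = 0.601). Its other probe set had -0.50. Combination replicates 2 and 3 were the low ones, and without them the difference was -0.19. Agtrap, which binds the angiotensin II type 1 receptor and promotes its internalisation, had 5.84, 6.14, 6.19 and 6.41 in the combination, against 6.76, 6.56, 6.67 and 6.71 in vehicle (-0.53, SE 0.14; adjusted p = 0.331). Separation was complete, but its other probe set had -0.10. Mas1, known as the receptor of an angiotensin fragment with effects opposite to those of angiotensin II, was 4.64 to 5.48 in the combination and 4.00 to 4.18 in vehicle. The aminopeptidase Enpep had 0.24 (SE 0.10) and the receptor Agtr1a -0.11 (SE 0.22), or 0.11 and -0.26 without combination replicates 2 and 3.

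Of 21 genes of the vitamin D receptor and its targets 11 were higher and 10 lower (median 0.05). At an unadjusted p under 0.05 there were 2 (9.52%), both higher, beside 4.2% of all genes. Vdr, the receptor, was 6.00, 6.10, 5.87 and 5.68 in the combination, against 5.35, 5.95, 5.58 and 5.53 in vehicle (0.31, SE 0.21), and the groups overlapped. The coactivator Ncoa1 had 0.17 (SE 0.07) without overlap. Its other probe sets had 0.05, with overlap, and 0.00, at the floor on every array. Thrombomodulin, Thbd, had 0.17 (SE 0.07). Rxrb, a retinoid X receptor, had 0.52 (SE 0.25). Spp1, osteopontin, had 9.51, 7.01, 7.76 and 9.12 in the combination, against 10.19, 8.54, 9.58 and 9.27 in vehicle (-1.05, SE 0.55). Its low values were again on combination replicates 2 and 3, and without them its difference was -0.080, that of Rxrb 0.29 and that of Thbd 0.072.

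In the insulin-like growth factor system, both receptors had lower levels. Igf2r, which clears IGF-II, had 10.84, 10.65, 10.81 and 10.96 in the combination, against 11.14, 11.08, 11.21 and 11.09 in vehicle (-0.32, SE 0.07; limma adjusted p = 0.242). Igf1r, the signalling receptor, had 8.02, 7.74, 8.10 and 7.87 in the combination, against 8.24, 8.35, 8.70 and 8.35 in vehicle (-0.48, SE 0.14; adjusted p = 0.452). Each had a second probe set that was lower as well, by -0.12 and -0.31, and the other arms averaged 11.01 and 8.41 with enalapril and 11.07 and 8.31 with paricalcitol. Of 15 genes of the system, only these 2 (13.3%) had an unadjusted p under 0.05, beside 3.48% of all genes that were lower at that p.

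In sterol synthesis 13 of 21 genes were higher (median 0.07). Insig1, which holds back the sterol-sensing transcription factors, had 8.99, 9.01, 9.00 and 8.84 in the combination, against 9.30, 9.34, 9.31 and 9.21 in vehicle (-0.33, SE 0.08; limma adjusted p = 0.339). The vehicle arrays were the high group here, since enalapril averaged 8.92, paricalcitol 8.97 and baseline 8.78. Idi1, an isomerase of the pathway, had 0.39 (SE 0.16), or 0.61 without combination replicates 2 and 3 and 0.21 without combination replicate 1, and -0.01 at its other probe set, and the sterol-sensing factor Srebf2 had 0.77 (SE 0.33), with vehicle arrays spread from 6.85 to 8.49.

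Among 24 genes of atrophy-related ubiquitin ligases and autophagy, 16 had lower levels (median -0.04). An unadjusted p under 0.05 was found for 4 (16.7%), all lower, beside 3.48% of all genes. The mean level of the 24 genes was -0.061 to 0.042 in the combination and 0.041 to 0.067 in vehicle. Baseline arrays had -0.146 to 0.069, paricalcitol arrays -0.123 to 0.156 and enalapril arrays -0.113 to 0.054, each overlapping both groups. A lower level was thus not particular to the combination. Bnip3, a mitophagy receptor, had 12.31, 12.19, 12.43 and 12.41 in the combination, against 12.95, 12.52, 12.77 and 12.59 in vehicle (-0.37, SE 0.10; limma adjusted p = 0.431), without overlap. Atg12 had -0.18 (SE 0.07), the sarcomeric ligase Trim54 -0.21 (SE 0.09, or -0.10 without combination replicates 2 and 3) and Lamp2, a lysosomal membrane protein, -0.18 (SE 0.08). The other probe sets of Atg12 had 0.02 and -0.10, and that of Lamp2 had -0.09. Hif1a, the hypoxia-inducible factor, had 0.30 (SE 0.14), and Adm and Bnip3, both known as hypoxia-induced genes, had the negative differences given above. Of 19 hypoxia-inducible genes, however, 9 were higher and 10 lower (median -0.08). Fkbp5, induced by glucocorticoids, had -0.51 (SE 0.22), but of 16 corticosteroid-responsive genes 8 were higher and 8 lower (median 0.01). The replication helicase gene Mcm4 had 0.44 (SE 0.16).

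Marker lists of other cells of the heart differed in direction. B cell markers were higher in 5 of 5 members (median 0.11) and mast cell markers in 7 of 10 (median 0.31), though 2 and 6 of these lay within 1 unit of the floor on average. Mast cell levels were -0.15 to 0.28 in the combination and -0.23 to -0.02 in vehicle, and overlapped. Endothelial markers were higher in 7 of 13 members, fibroblast markers in 8 of 15 and smooth muscle and pericyte markers in 6 of 14, with medians of 0.02, 0.07 and -0.02. Emcn, endomucin, had 9.04, 9.74, 9.72 and 9.19 in the combination, against 8.60, 9.25, 8.96 and 8.69 in vehicle (0.55, SE 0.16), and the groups overlapped through vehicle replicate 2. Its difference was 0.24 without combination replicates 2 and 3. Podxl, of the vessel lining, had 0.21 (SE 0.08). Abcc9, a potassium channel subunit used here as a pericyte marker, had 0.26 (SE 0.13), with -0.07 and 0.06 at its other probe sets. Of 10 red cell markers 4 were higher and 6 lower, and Gypc, glycophorin C, had 10.15 to 10.38 in the combination and 9.89 to 9.96 in vehicle (0.35, SE 0.13).

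**Figure D5:**
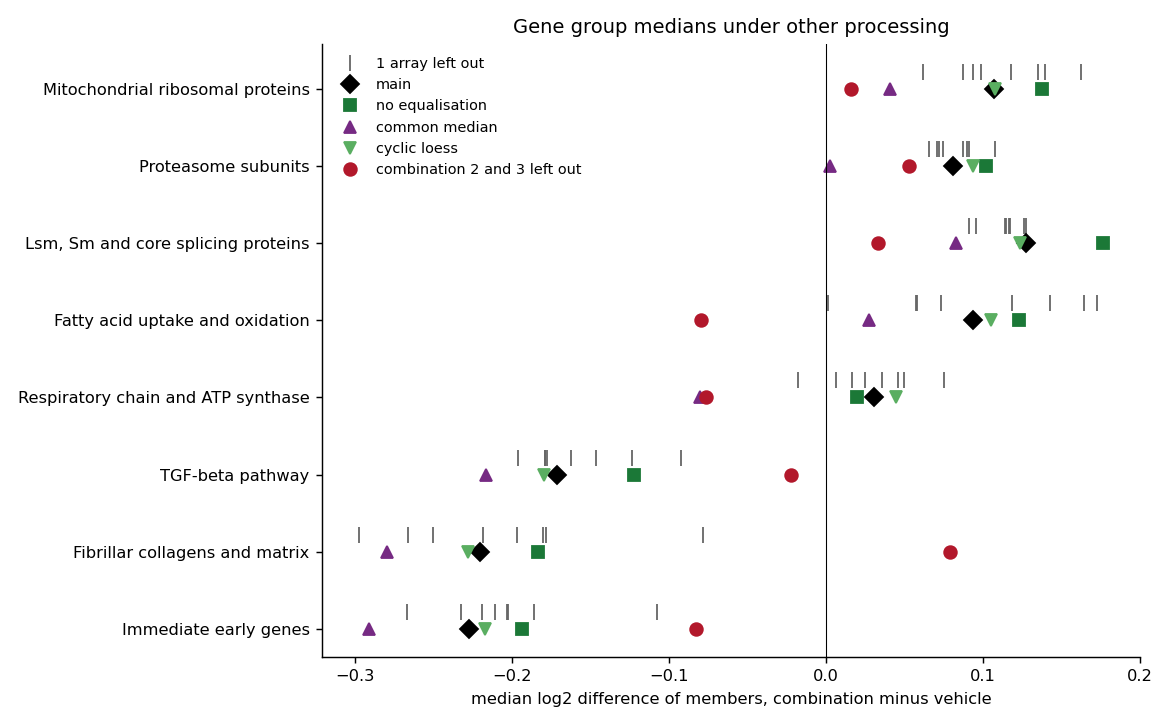
Median log2 difference of the members of 8 gene groups, combination minus vehicle (x axis), as reported (black diamonds) and under other scalings, with 1 array left out in turn (grey ticks), or with combination replicates 2 and 3 left out (red circles). Without those arrays the medians of the collagen group (-0.22 as reported) and the fatty acid group (0.09 as reported) turn to 0.08 and -0.08, and the respiratory chain (0.03 as reported) is at -0.08 then and also with arrays scaled to a common median.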

How the data were processed

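Left ventricle RNA of 19 samples was labelled with biotin and hybridised to Affymetrix arrays, 1 per sample, per the labels. The authors deposited an intensity on a linear scale for each probe set. The summarisation and scaling behind it was not given in the sources used here. On each array 16.0% to 18.2% of values were negative, as after background subtraction, and array medians differed (43.6 to 72.6). Precision is limited by the number of samples. The labels number each sample separately but do not state that each is 1 animal, so p-values measure the spread between these samples.

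Here the deposited intensities were quantile normalized over all 19 arrays, values below 0 were set to 0, and log2(value + 16) was taken, with a floor of 4. Of 31099 probe sets, 20826 named 1 gene in GEO's platform annotation, 436 several, 9780 none, and 57 were controls. The 14217 genes were each represented by their brightest probe set on average, and 511 of them lay at the floor on every array. IDs of 20758 probe sets matched RefSeq.

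limma 3.58.1 in R 4.3.3 fitted 1 mean per group over all 19 arrays (lmFit, eBayes with a trend), with Benjamini-Hochberg adjustment over all genes, and was checked on simulated data. Genes named were those that passed, the 8 with the smallest p in each direction, the 12 with the largest difference in each direction among brighter genes (level above the median of 7.07) without overlap, up to 4 of each list with the smallest p, and a cardiac panel. The members and the 54 lists (39 of processes, 15 of markers) were chosen with earlier results of these data known. A list's level on an array is the mean deviation of its members from their average over 19 arrays. Alternatives were other scalings, dim genes left out, no trend, array weights, the 8 arrays alone, probe sets averaged or taken singly, pseudocounts of 4 and 64, the red cell level as a covariate, the replicate number as a block, and arrays left out. Promoter windows are from RefSeq (GRCr8), found for 11700 of the 14217 genes.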

Additional observations from a re-analysis of the deposited data

Results flagged for a closer look

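A probe set that names no single gene passed when p was adjusted over all probe sets except controls. It had 5.32, 5.46, 5.6 and 4.82 in the combination, against 4.00, 4.00, 4.07 and 4.00 in vehicle, a difference of 1.28 (SE 0.16; limma adjusted p = 0.0209). Enalapril arrays had 4.35 to 4.49, and the level is near the floor. Of 10216 probe sets that name no single gene, 1 passed and 635 (6.22%) had an unadjusted p under 0.05.

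Of 344 groups of 4 values examined, 23 had a highest or lowest array far from the other 3, where chance gives about 1 in 20. In the combination these were Plet1 on replicate 2 (4.16), Wbp11 on replicate 3 (9.29), Snrpd2 on replicate 1 (9.99), Cxcl12 on replicate 4 (11.37), Insig1 on replicate 4 (8.84), Mcm4 on replicate 2 (6.54) and Pln on replicate 2 (14.18). In vehicle they were Miga2 (4.00), Lsm7 (8.70), Mas1 (4.18) and Abcc9 (10.64) on replicate 1, Csdc2 (7.13), Psmb3 (10.17) and Il6st (10.64) on replicate 2, and Mrpl44 (8.33), Psmc3 (9.31) and Myh7 (14.05) on replicate 3. Among marker levels in the combination, replicate 1 was lowest for endothelial (-0.24), T and NK cell (-0.30) and mast cell markers (-0.15). In vehicle, endothelial markers were highest on replicate 2 (-0.051), mast cell markers lowest on replicate 3 (-0.23), and adipocyte markers highest on replicate 1 (0.10).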

How the results depend on the processing

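The count of genes past the threshold was 1 as reported. It was 0 with the deposited values, with arrays scaled to a common median, with cyclic loess and with dim genes left out. It was 2 with the 8 arrays alone (Plet1 and Rhobtb2), with probe sets tested singly (Eif2ak1 and Lsm5), with the red cell level as a covariate (Hdgf and Lsm5), and without combination replicates 2 and 3 (Cuzd1 and Gnl1). Leaving out single arrays gave 0 to 1 (Cuzd1 without combination replicate 2, Gnl1 without combination replicate 3). Lsm5 had an adjusted p of 1.00 in the deposited values (0.52), 0.0776 after median scaling (0.43), 0.062 after cyclic loess, 0.0743 without dim genes, 0.251 with 8 arrays and 0.157 without combination replicates 2 and 3 (0.42). It passed without the trend (0.045), with array weights (0.0169), probe sets averaged (0.0386) or singly (0.0283), pseudocounts 4 (0.0389) and 64 (0.0461), and the red cell covariate (0.0385). The causes were not tested.

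Genes at unadjusted p under 0.05 numbered 603 in the deposited values and 628 without dim genes, where fewer genes were tested, and 832 to 1348 with single arrays left out. Genes without overlap numbered 268 in the deposited values and, where fewer arrays have to separate, 831 to 1377 with single arrays left out and 2526 without combination replicates 2 and 3. The share of higher genes at unadjusted p under 0.05 was 70.1% in the deposited values and 36.3% after median scaling, against 54.7%.

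With the replicate number as a block, 2 genes passed (Lsm5 and Synj1, both at adjusted p = 0.047). Deviations of equally numbered combination and vehicle arrays correlated at 0.15, 0.34, -0.09 and 0.11, so the numbers were not taken to pair rats.

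Small differences that changed sign were those of Acta1 (-0.049 deposited, -0.15 median scaling, -0.013 loess), Atp2a2 (-0.043, -0.14 and -0.0055, and -0.14 with probe sets averaged) and Pln (-0.065, -0.17 and -0.027). With single arrays left out, Agtr1a ran from -0.31 to 0.038 (without vehicle replicate 2), Myh7 from -0.079 to 0.0083 (without combination replicate 3), Pln from -0.0033 (without combination replicate 2) to 0.038 and Atp2a2 from -0.0054 (without combination replicate 2) upward. Without combination replicates 2 and 3, Lsm1 was -0.077, Lsm3 -0.15, Myh7 0.049 and Atp2a2 -0.025. Signal near the floor limits Kiaa0319, Plet1, Cuzd1, Mas1 and Npr3.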
